A study of Mus musculus with 65 samples.

Results

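Multipotent progenitors (MPP) were set against short-term hematopoietic stem cells (ST) from mouse bone marrow, the last step of the stem cell series sampled in the study. Both were sorted by flow cytometry from the LSK gate, in which cells lack lineage antigens and carry Sca-1 and c-Kit. ST cells were Flk2- CD34+ (n = 3 libraries) and MPP cells Flk2+ CD34+ (n = 4 libraries), so the sort differed in Flk2, the receptor encoded by Flt3. Members were chosen by these labels, and they are 7 of the 65 libraries of the study and 7 of the 17 libraries made from stem and progenitor cells. The other 10 were Reserve stem cells (Flk2- CD34- CD49b-, n = 4), Primed stem cells (Flk2- CD34- CD49b+, n = 3) and 5FuReserve cells (n = 3), sorted by the Reserve gate 3 days after animals received fluorouracil. ST, MPP, Reserve and Primed cells came from untreated animals as far as the labels say, and strain and age are not given in the sources used here. Whether each replicate was a separate animal is not stated in the labels. The p-values then capture only variation among these libraries, which may be technical.

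Short-term stem cells rebuild blood for a limited time after transplantation, while multipotent progenitors still give rise to all blood lineages but hardly renew themselves. Cells that gain Flk2 lose much of their potential for megakaryocytes and red cells and begin to transcribe genes of the lymphoid and myeloid lineages, which is known as lineage priming. Progenitors also divide more often than the stem cells above them. The groups of genes described here follow these textbook themes.

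Levels are FPKM, fragments scaled by transcript length in kilobases and by the mapped fragments of the library, and differences are log2 fold changes of FPKM + 1, MPP minus ST, with the standard error from the fit. The spacing of the lowest values gave estimated depths, in M (mega) fragments, of 17.3 to 27.1 for ST and 16.9 to 30.9 for MPP replicates 1, 3 and 4, and a lower one for MPP replicate 2, and 12777 to 13378 genes per library reached 1 FPKM. The 10 genes with the highest FPKM held 68.3% to 77.7% of the FPKM of ST libraries and 79.0% to 86.9% of that of MPP libraries, and FPKM values of a library share 1 total. The median log2 fold change of all tested genes was -0.18, and it was 0.01 after median-of-ratios scaling, and counts after this scaling are given beside the others. Within the homeostatic groups, differences between libraries had 10.7 to 25.1 times the variance expected from counting, except for Reserve replicates 3 and 4 (1.66) and Primed replicates 2 and 3 (1.39). These pairs differed by little more than counting noise and were counted as 1 sample each, which gives n = 3 for Reserve and n = 2 for Primed in means and SDs. They entered the fit as deposited, and results with each pair averaged are given where they matter.

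Transcripts of the antigens used in the sort were read first. Flt3 (ENSMUSG00000042817, chromosome 5, 147330741 to 147400489) stood at 35.9, 29.7 and 30.9 FPKM in the ST libraries and at 85.2, 80.4, 102 and 89.7 FPKM in the MPP libraries. The groups did not overlap, and the log2 fold change of 1.44 ± 0.18 follows the gate, so it is a check of the labels (limma adjusted p = 8.8e-05). Cd34, which both gates require, was at 247, 261 and 261 FPKM in ST and 303, 266, 307 and 263 FPKM in MPP (log2 fold change 0.15 ± 0.16, adjusted p = 0.55 and, after scaling, 0.047). Kit, the stem cell factor receptor, was at 92.5, 101 and 102 FPKM in ST and fell to 58.8, 62.7, 60.3 and 60.4 FPKM in MPP, although both groups were sorted as c-Kit positive (-0.69 ± 0.07, adjusted p = 1.7e-05). Ly6a, which encodes Sca-1, was at 160.3, 152 and 148 FPKM in ST and 68.5, 85.8, 131 and 94.9 FPKM in MPP (-0.72 ± 0.16, adjusted p = 0.0061), a call that was lost when only ST and MPP libraries were fitted (adjusted p = 0.061). Itga2, which encodes CD49b, lay at 0.264, 0.677 and 0.221 FPKM in ST and 1.13, 0.273, 0.842 and 0.83 FPKM in MPP, too low to be tested. Coordinates are those of mm10 (GENCODE M21) throughout.

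Across all genes, more were lower than higher in MPP. Of 16171 tested genes, 3291 (20.4%) passed an adjusted p of 0.05, 772 higher (4.77%) and 2519 lower (15.6%). At a change of at least 2-fold, 301 genes were higher (1.86%) and 793 lower (4.9%). After median-of-ratios scaling 1488 of 16126 genes were higher (9.23%) and 1225 lower (7.6%). In that fit 771 of the 772 higher and 1225 of the 2519 lower genes were called in the same direction, so the excess of lower calls depended on the scaling. All 4 MPP libraries lay above all 3 ST libraries for 1142 genes (7.06%) and below them for 3173 genes (19.6%). With the near-identical pairs averaged 645 genes were higher and 2055 lower, and with ST and MPP libraries alone in the fit 380 were higher and 1105 lower. The total of calls fell to 1978 without ST replicate 2 and to 2132 without ST replicate 3. Counts within the gene lists are to be read against these shares of all genes.

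**Figure D1:**
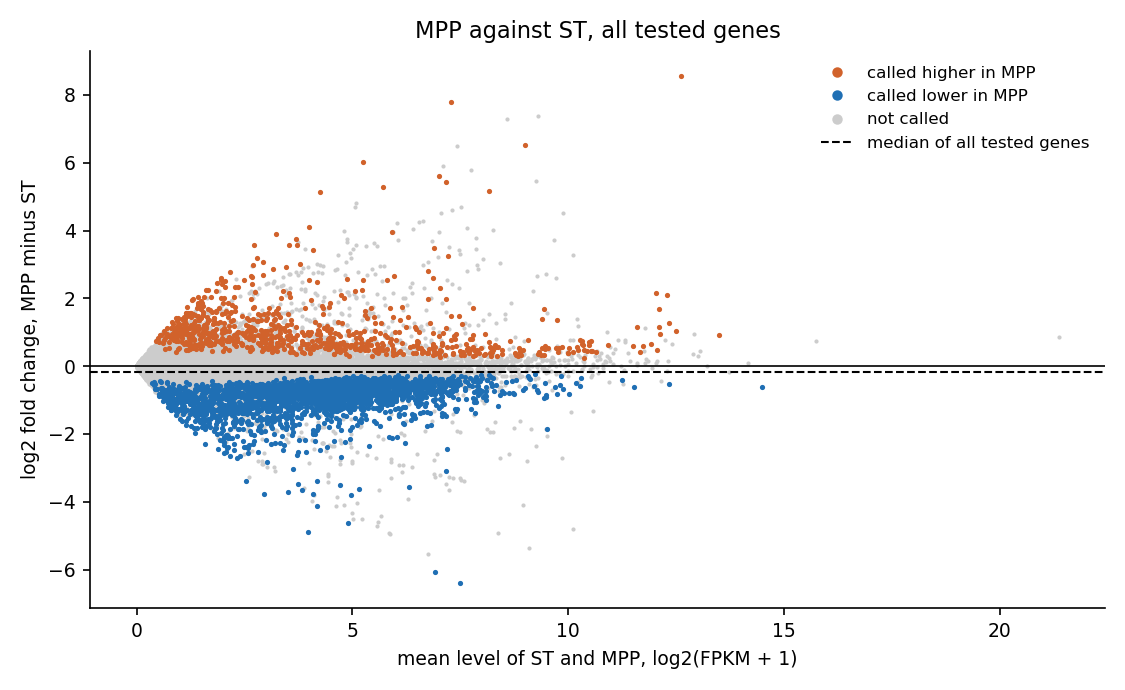
Log2 fold change between MPP and ST (vertical axis) against the mean level of both groups in log2(FPKM + 1) (horizontal axis), 1 point per tested gene, coloured by the call at an adjusted p under 0.05. The dashed line marks the median of all tested genes at -0.18, and 772 points are called above 0 against 2519 below.

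Most genes that mark stem cells fell. Of 34 tested genes of a stem cell signature, 29 were called lower in MPP and the other 5 were not called, with a median log2 fold change of -1.37 against -0.18 for all genes. After scaling 27 were lower (median -1.17). In bulk samples, fewer cells that express a gene and less RNA per cell cannot be told apart. Pdzk1ip1 (ENSMUSG00000028716, chromosome 4, 115088708 to 115093899), a small membrane protein gene used as a stem cell marker, stood at 265, 223 and 252 FPKM in ST and at 40.2, 54.3, 40.3 and 43.8 FPKM in MPP. Its highest MPP library was far below its lowest ST library, and the log2 fold change was -2.45 ± 0.11 (limma adjusted p = 2.0e-08). Esam, an adhesion molecule of endothelial and stem cells, went from 38.4, 52.8 and 44.7 FPKM to 7.28, 4.96, 7.51 and 5.2 FPKM (-2.69 ± 0.20). Tgm2, a transglutaminase, was nearly silent in MPP at 0.059, 0, 0.122 and 0.486 FPKM, against 5.25, 5.25 and 5.32 FPKM in ST (-2.44 ± 0.15). Ly6c2, the highest member that was not called, was at 78.8, 74.6 and 36.2 FPKM in ST and 82, 189, 167 and 99.9 FPKM in MPP (adjusted p = 0.18).

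Further signature genes, chosen after their values were seen because they serve as sorting markers of stem cells, moved the same way. Procr, which encodes the protein C receptor EPCR, fell by a log2 fold change of -1.48 ± 0.16, Slamf1, which encodes CD150, by -1.35 ± 0.21, and Vwf, von Willebrand factor, by -2.29 ± 0.25. Other genes were among the 10 largest falls at 5 FPKM or more without overlap. Aldh1a1, which oxidises retinal to retinoic acid, was at 17.5, 20.4 and 21.8 FPKM in ST and 0.763, 0, 0.352 and 1.75 FPKM in MPP (-3.70 ± 0.27). Nupr1, a stress-induced nuclear protein, was at 37.7, 28.3 and 25.9 and 2.38, 0.044, 1.43 and 2.2 FPKM (-3.77 ± 0.32). Apoe, apolipoprotein E, was at 259.7, 248 and 257 FPKM in ST and 33.9, 16.2, 36.8 and 36 FPKM in MPP (-3.08 ± 0.23), with MPP replicate 2 below the other MPP libraries. The proteoglycan gene Bgn (-3.39 ± 0.29), Phactr1, a regulator of actin (-3.03 ± 0.49), and the glutathione transferase gene Gstm2 (-2.66 ± 0.24) were also among them, together with Cxcl12 (-2.70 ± 0.80). Cxcl12, a chemokine of stromal cells, varied from 1.05 to 15.1 FPKM among ST libraries, and its call was lost without any one of ST replicates 1 and 2 or MPP replicates 1 and 2 (adjusted p 0.053 to 0.13).

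**Figure D2:**
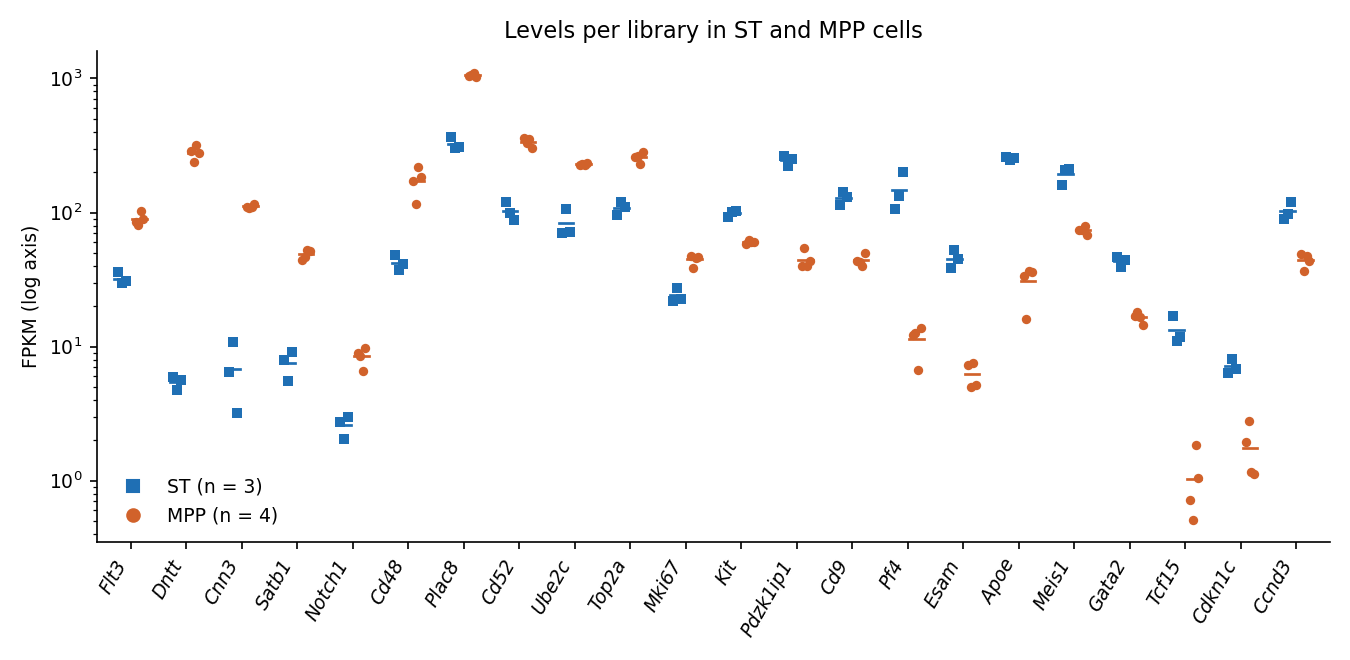
FPKM on a log axis for 22 genes named in the text, with 1 square per ST library (n = 3), 1 circle per MPP library (n = 4) and a bar at each mean. The 2 groups are apart for each gene shown, with genes of the lymphoid, myeloid and mitosis lists higher in MPP and stem cell and megakaryocyte genes lower.

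Most transcription regulators of stem cells fell too. Of 29 tested regulators 20 were called lower and 1 higher, with a median log2 fold change of -1.01. After scaling 16 were lower and 2 higher, with a median of -0.78. Meis1 (ENSMUSG00000020160, chromosome 11, 18879817 to 19018985), a homeobox cofactor needed for stem cell maintenance, stood at 161, 208 and 211 FPKM in ST and 74.2, 73.9, 78.8 and 67.5 FPKM in MPP. Each MPP library lay below each ST library (-1.37 ± 0.10, limma adjusted p = 4.5e-07). Gata2, a factor required for stem cell survival, was at 46.5, 39.1 and 44.2 FPKM in ST and 16.8, 18.1, 16.7 and 14.6 FPKM in MPP (-1.33 ± 0.09). Tcf15, a basic helix-loop-helix factor, dropped from 16.9, 10.9 and 11.8 FPKM to 0.715, 0.512, 1.83 and 1.04 FPKM (-2.83 ± 0.21), and Ndn, an imprinted growth suppressor, from 11.3, 14.4 and 10.4 FPKM to 1.77, 1.85, 1.35 and 2.63 FPKM (-2.17 ± 0.19). Mecom (-1.42 ± 0.14), Mllt3 (-1.60 ± 0.21), Mycn (-1.25 ± 0.20) and Hlf (-1.01 ± 0.09), named after their values were seen, were also lower. Other stem cell regulators were not called. Msi2, an RNA-binding protein, was at 56.2, 39.6 and 44.8 FPKM in ST and 45.1, 52.8, 38.1 and 51.5 FPKM in MPP (0.00 ± 0.14), and Runx1 had a log2 fold change of 0.16 ± 0.21 (adjusted p = 0.64). The 1 regulator that rose was Hmga2, a chromatin protein of fetal and proliferating stem cells, at 4.31, 4.23 and 3.81 FPKM in ST and 9.61, 9.09, 9.08 and 7.93 FPKM in MPP (0.95 ± 0.20, adjusted p = 0.0046).

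Hox genes, which take part in stem cell self-renewal, were less uniform. In the list, which also holds cofactors such as Meis1, 7 of 16 tested genes were lower and the other 9 were not called (median -0.32). After scaling 5 were lower and 1 higher, and 1 was also higher without ST replicate 2. Hoxa10 went from 9.54, 13.6 and 13.8 FPKM to 5.52, 6.33, 8.34 and 6.63 FPKM (-0.78 ± 0.15). Hoxa9 had a log2 fold change of -0.52 ± 0.11 and lost its call after scaling (adjusted p = 0.072), and Hoxa7 was at 19.8, 25.4 and 29 and 24.9, 24.7, 23.6 and 25.5 FPKM with a difference of 0.01 ± 0.13. Among imprinted growth genes 5 of 15 were lower (after scaling 4), among them Phlda2 (-2.53 ± 0.32) and the signalling adaptor gene Grb10 (-2.20 ± 0.33).

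Most genes of the megakaryocyte list fell. Of 23 tested megakaryocyte and platelet genes 15 were lower and 1, Mef2c, was higher, with a median log2 fold change of -1.06. After scaling 13 were lower and 1 higher (median -0.93). Pf4 (ENSMUSG00000029373, chromosome 5, 90772435 to 90773383), platelet factor 4, stood at 106, 132 and 202 FPKM in ST and 12.1, 12.7, 6.67 and 13.9 FPKM in MPP. Each ST library lay well above the highest MPP library (-3.57 ± 0.26, limma adjusted p = 7.6e-07). The tetraspanin gene Cd9 went from 114, 143 and 131 FPKM to 43.6, 43.1, 39.9 and 49.7 FPKM (-1.53 ± 0.10). Ppbp, a platelet chemokine, was at 4.95, 6.13 and 7.76 FPKM in ST and 0.806, 0, 0.947 and 0.037 FPKM in MPP (-2.38 ± 0.25), and Nrgn, a calmodulin-binding protein of platelets, was not called (-0.46 ± 0.17, adjusted p = 0.074). The call of Mef2c, which also acts in lymphoid progenitors, was lost without MPP replicate 1, MPP replicate 4, ST replicate 2 or ST replicate 3 (adjusted p 0.061 to 0.09).

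Erythroid genes gave fewer calls. Among 21 tested genes 6 were lower and 1 higher (median -0.35), and after scaling 4 and 1 (median -0.16). Leaving out ST replicate 2 gave 3 lower genes and leaving out ST replicate 3 gave 2. Car2, carbonic anhydrase 2, fell from 926, 1345 and 1139 FPKM in ST to 327, 247, 334 and 339 FPKM in MPP (-1.86 ± 0.18, limma adjusted p = 1.0e-05). Gfi1b, a repressor needed for red cells and megakaryocytes, was at 41.7, 49.8 and 56.2 FPKM and 10.5, 7.88, 17.3 and 7.53 FPKM (-2.15 ± 0.27). The transferrin receptor gene Tfrc was the higher one, at 5.75, 14.1 and 11.3 FPKM in ST and 21.8, 18.1, 18.7 and 19.9 FPKM in MPP (0.93 ± 0.25), and its call was lost without ST replicate 1 (adjusted p = 0.072).

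Many genes of lymphoid priming rose. Of 32 tested genes of lymphoid priming 16 were higher in MPP and 3 lower, with a median log2 fold change of 0.60 (after scaling 18, 3 and 0.86). Dntt (ENSMUSG00000025014, chromosome 19, 41029275 to 41059525), terminal transferase, which adds nucleotides where antigen receptor segments join, stood at 5.93, 4.74 and 5.67 FPKM in ST and 286, 239, 317 and 279.8 FPKM in MPP. The groups did not overlap (5.45 ± 0.30, limma adjusted p = 5.5e-08). Cnn3, calponin 3, was at 6.42, 10.9 and 3.21 FPKM in ST and 111, 108, 111 and 115 FPKM in MPP (3.96 ± 0.34). Satb1, a chromatin organiser that directs stem cells to the lymphoid lineage, rose from 7.91, 5.52 and 9.12 FPKM to 44.1, 47, 52.9 and 52.1 FPKM (2.57 ± 0.23), and the receptor gene Notch1 from 2.74, 2.03 and 2.98 FPKM to 8.94, 8.58, 6.57 and 9.74 FPKM (adjusted p = 4.4e-05). None of these genes overlapped between the groups. Bcl11a, a factor required for lymphoid development, was already at 56.6, 46.3 and 52.2 FPKM in ST and at 56.8, 57.5, 47.8 and 59.4 FPKM in MPP (0.10 ± 0.11, adjusted p = 0.56).

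Receptors and recombination genes of early lymphoid cells, named after their values were seen, were at lower levels. Rag2, a subunit of the recombinase, was near 0 in ST at 0.030, 0 and 0 FPKM and at 3.93, 1.48, 3.33 and 4.65 FPKM in MPP (2.04 ± 0.22). Rag1 was at 0, 0 and 0.006 and 0, 0.372, 0.194 and 0.126 FPKM, too low to be tested. Igll1 was at 0, 0.464 and 0 and 10.3, 0, 0 and 14.8 FPKM, in too few libraries to be tested. Il7r, the interleukin 7 receptor, was at 0.117, 0.749 and 0.591 and 3.29, 1.39, 2.52 and 5.49 FPKM (1.42 ± 0.26), and Ccr9, a thymus homing receptor, at 0.037, 0.877 and 0.034 and 2.95, 2.33, 3.53 and 5.05 FPKM (1.79 ± 0.36). The 3 lower members were Ltb, lymphotoxin beta (-1.66 ± 0.25), Il2rg, the common gamma chain (-1.42 ± 0.28), and Foxo1 (-0.78 ± 0.17). Arpp21, an RNA-binding protein of early lymphocytes that is among the largest rises, went from 0.277, 0.408 and 0.696 FPKM to 9.85, 10.4, 10.1 and 12 FPKM (2.99 ± 0.22). Other large rises were Cox6a2, a subunit of cytochrome oxidase known from muscle, from 0, 0.254 and 0.163 FPKM to 13.4, 12, 25.2 and 15.6 FPKM (3.90 ± 0.30), and Wfdc17, a small secreted protein, from 29.3, 28.3 and 23.9 FPKM to 298, 258, 259 and 249 FPKM (3.25 ± 0.23).

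Some immunoglobulin genes were higher in MPP, while most B lineage markers were not called. Ighm was at 10.1, 21 and 12 FPKM in ST and 500.5, 347, 808 and 562 FPKM in MPP (5.18 ± 1.47, limma adjusted p = 0.023), a call lost without any one of the ST libraries (adjusted p 0.053 to 0.068). The variable segments Ighv1-82 (0, 0 and 0 and 16.2, 11.2, 8.65 and 8.56 FPKM) and Ighv1-77 (1.34, 0 and 0 and 9.72, 10.8, 15.9 and 9.12 FPKM) were higher in each MPP library. Reads of immunoglobulin genes can be shared among near-identical copies. Igkc, the kappa light chain, was at 35.4, 160.4 and 238 FPKM in ST and 1248, 1582, 1208 and 1932 FPKM in MPP, and Jchain, a plasma cell gene, at 1.15, 34.9 and 35.4 and 201, 217, 317 and 79.4 FPKM. All MPP libraries were above all ST libraries for both, but neither was called (adjusted p = 0.26 and 0.11), and Igkc was called with ST and MPP libraries alone in the fit (adjusted p = 0.012). The summed FPKM of 12 mature B cell markers ran from 143 to 351 in ST and from 1342 to 3128 in MPP, with 1 higher and 1, Cd79b, lower by the test and a median log2 fold change of 0.17. Igkc, which was not called, made up most of this sum in MPP replicates 1, 2 and 4. After scaling 1 of these markers was higher and 0 lower, and Cd79b was not called (limma adjusted p = 0.18). The Cd79b call was also lost without MPP replicate 1 or 2 or ST replicate 2 or 3 (adjusted p 0.064 to 0.11). Cd79a was at 0, 0 and 0.030 FPKM in ST and 4.26, 0, 0.614 and 1.37 FPKM in MPP. Of 11 plasma cell genes, a list added after these values were seen, 3 were higher and 1 lower, and after scaling 3 and 1. The part of such cells in the lymphoid result was not tested.

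**Figure D3:**
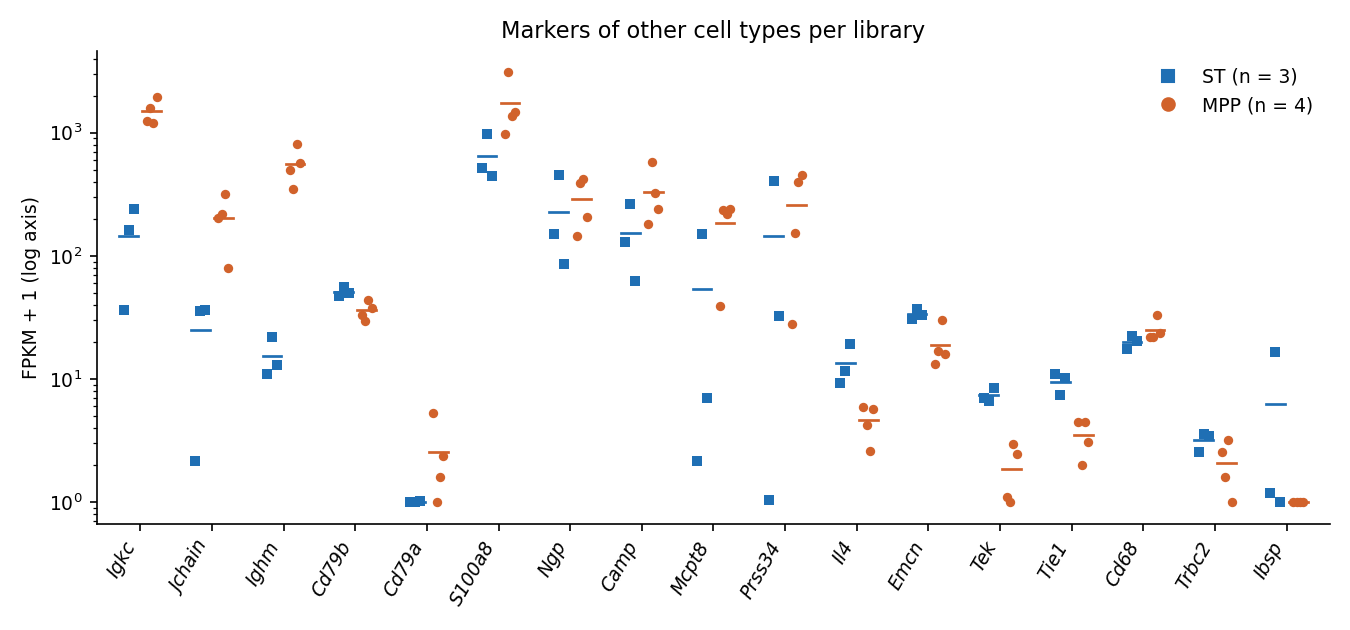
FPKM + 1 on a log axis for markers of B lineage cells, neutrophils, basophils, endothelial cells, macrophages, T cells and stroma, with 1 square per ST library (n = 3), 1 circle per MPP library (n = 4) and a bar at each mean. Igkc, Jchain and Ighm are higher in the 4 MPP libraries, and Mcpt8 and Prss34 differ widely within both groups.

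Some genes of the myeloid priming list, which also holds general surface genes of progenitors such as Cd48, rose as well. Of 32 tested genes 11 were higher and the other 21 were not called (median 0.60), and after scaling 16 were higher (median 0.85). Without MPP replicate 3, 2 genes were lower. Cd48 (ENSMUSG00000015355, chromosome 1, 171682009 to 171705258), an adhesion molecule that stem cells lack and progenitors carry, stood at 48.3, 37.1 and 41.2 FPKM in ST and 173, 116, 218 and 184 FPKM in MPP, without overlap (1.98 ± 0.23, limma adjusted p = 4.6e-05). Plac8, expressed in myeloid progenitors, was at 365, 304 and 309.6 FPKM in ST and 1039, 1056, 1098 and 1027 FPKM in MPP (1.69 ± 0.14), again without overlap. The surface protein genes Cd52 (121, 99.5 and 87.4 FPKM in ST and 357, 332, 356 and 301 FPKM in MPP) and Emb (53.5, 62 and 69.9 and 121, 110.03, 139.6 and 125 FPKM) rose as well. Cebpa, a factor that starts the granulocyte programme, named after its values were seen, was low in both groups at 0.705, 0.356 and 0.35 FPKM and 1.85, 2.29, 2.46 and 2.1 FPKM (1.12 ± 0.18). Granule proteins varied more. Mpo, myeloperoxidase, was at 310.1, 173 and 138 FPKM in ST and 723, 1466, 923 and 724 FPKM in MPP and missed the threshold (adjusted p = 0.055, and 0.045 after scaling). Ctsg, cathepsin G, was at 44.6, 24.4 and 14.7 and 138, 256, 181 and 173 FPKM (2.80 ± 0.76), and Cst7, cystatin F, at 15.7, 17.1 and 14.4 and 77.6, 129, 121 and 97.9 FPKM (2.66 ± 0.49). The Ctsg call was lost without ST replicate 2 (adjusted p = 0.059) or ST replicate 3 (adjusted p = 0.082).

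Markers of mature myeloid cells moved in part with these genes. None of 14 neutrophil markers was called by limma, with or without scaling. Without it 2 were higher at an unadjusted p under 0.05, and their median log2 fold change was 0.74. Their summed FPKM was 1219.6, 2793 and 831 in ST and 2175, 6686, 3592 and 2847 in MPP, highest in MPP replicate 2. S100a8 alone was at 515, 966 and 440.4 FPKM and 974, 3096, 1365 and 1468 FPKM (adjusted p = 0.12). Basophil and mast cell markers were uneven, with 2 of 9 higher and 1 lower, and after scaling 3 and 1. Without ST replicate 2, 5 were higher, and 1 was higher without any other single library except MPP replicate 1. Mcpt8, a basophil protease, was at 1.16, 151 and 6.08 FPKM in ST and 38.1, 234, 218 and 239 FPKM in MPP (3.48 ± 1.14), and its call was lost without ST replicate 1 or 3 or without MPP replicate 2, 3 or 4 (adjusted p 0.075 to 0.19). No member of the macrophage and dendritic cell list (11 tested, 1 higher and 1 lower at an unadjusted p under 0.05) or of the T and NK cell list (16 tested, 0 and 1) was called by limma. After scaling 1 macrophage and dendritic cell marker was higher, and no T and NK cell marker was called. The part of such cells in the myeloid result was not tested.

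Endothelial and stromal markers were also read. Of 13 endothelial markers 2 were higher and 4 lower, and after scaling 2 and 4. Summed FPKM of this list was 336, 320.4 and 322 in ST and 399.8, 418, 387 and 390.1 in MPP. The higher ones, named after their values were seen, were Pecam1 (0.66 ± 0.17) and Egfl7 (0.47 ± 0.14), and among the lower ones were Tek (-2.13 ± 0.37), Tie1 (-1.50 ± 0.25) and Emcn (-0.89 ± 0.21), which stem cells also express. The higher count was 1 without MPP replicate 1 or ST replicate 3, and both higher calls were lost without ST replicate 2. Of 9 stromal markers 1 was higher, a call lost without ST replicate 3, and 3 were lower, at most 1 of them without any other single library. After scaling 1 was higher and 2 lower. Summed FPKM of the stromal markers was 26.3, 43.7 and 3.2 in ST and 6.13, 6.5, 8.05 and 5.43 in MPP. Ibsp, a bone matrix gene, reached 0.189, 15.5 and 0 FPKM in ST, that is, it was highest in ST replicate 2, and it was listed at 0 in every MPP library.

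Cell cycle genes were read as mitosis and DNA replication lists. Of 38 tested mitosis genes 12 were higher and the other 26 were not called (median 0.60), and after scaling 26 were higher (median 0.86). Ube2c (ENSMUSG00000001403, chromosome 2, 164769898 to 164778822), the ubiquitin-conjugating enzyme of the anaphase-promoting complex, stood at 71, 107 and 72.2 FPKM in ST and 228, 231, 225 and 232 FPKM in MPP. Each MPP library was above the highest ST library (1.47 ± 0.22, limma adjusted p = 5.1e-04). Top2a, topoisomerase II alpha, was at 95.4, 120.5 and 110.3 FPKM and 259.8, 263, 232 and 283 FPKM (1.25 ± 0.20). Mki67, which encodes the proliferation antigen Ki-67, was at 22, 27.6 and 22.7 FPKM in ST and 47.4, 38.5, 45.9 and 46.9 FPKM in MPP (0.87 ± 0.11), and Birc5, survivin, at 65.8, 76 and 92.4 and 157, 137, 175 and 151 FPKM (0.99 ± 0.15). Racgap1, the highest member that was not called, had a log2 fold change of 0.45 ± 0.20 (adjusted p = 0.13, and 0.048 after scaling).

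Promoters of mitosis genes are shown because 12 of these genes were called higher and because such promoters often carry the CCAAT box, bound by NF-Y, and the CHR element TTTGAA. The windows hold 300 bases around the first listed start of each gene in RefSeq (build GRCm38.p6), and capitals mark CCAAT and TTTGAA on either strand, where a CCAAT may overlap its own complement. Ube2c lies at chr2:164769679-164769978, plus strand, Top2a at chr11:99024140-99024439, minus strand, Hmmr at chr11:40733388-40733687, minus strand, Plk1 at chr7:122159185-122159484, plus strand, and Birc5 at chr11:117848987-117849286, plus strand.
Ube2c: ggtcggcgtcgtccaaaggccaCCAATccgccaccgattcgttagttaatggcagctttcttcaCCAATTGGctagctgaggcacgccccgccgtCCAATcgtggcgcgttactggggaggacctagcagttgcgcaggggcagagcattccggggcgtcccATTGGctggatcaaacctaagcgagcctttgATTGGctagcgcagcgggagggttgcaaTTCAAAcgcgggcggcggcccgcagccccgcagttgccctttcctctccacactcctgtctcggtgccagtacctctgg
Top2a: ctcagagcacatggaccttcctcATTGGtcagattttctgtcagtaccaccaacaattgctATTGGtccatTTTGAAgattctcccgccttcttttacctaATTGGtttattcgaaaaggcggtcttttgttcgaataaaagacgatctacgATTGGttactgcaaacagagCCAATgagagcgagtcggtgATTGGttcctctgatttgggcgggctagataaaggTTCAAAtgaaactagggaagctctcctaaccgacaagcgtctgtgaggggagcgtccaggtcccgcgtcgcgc
Hmmr: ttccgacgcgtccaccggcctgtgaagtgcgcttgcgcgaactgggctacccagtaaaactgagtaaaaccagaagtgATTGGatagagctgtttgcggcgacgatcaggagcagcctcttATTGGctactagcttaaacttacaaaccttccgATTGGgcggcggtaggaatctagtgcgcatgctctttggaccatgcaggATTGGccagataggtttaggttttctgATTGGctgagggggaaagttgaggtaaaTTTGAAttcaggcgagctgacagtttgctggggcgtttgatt
Plk1: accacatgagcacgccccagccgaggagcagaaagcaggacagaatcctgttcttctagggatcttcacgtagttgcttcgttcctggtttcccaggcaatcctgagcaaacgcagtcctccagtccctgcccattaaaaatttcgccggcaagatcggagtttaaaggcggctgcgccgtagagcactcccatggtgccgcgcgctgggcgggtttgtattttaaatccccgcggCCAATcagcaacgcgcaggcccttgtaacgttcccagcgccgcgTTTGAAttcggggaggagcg
Birc5: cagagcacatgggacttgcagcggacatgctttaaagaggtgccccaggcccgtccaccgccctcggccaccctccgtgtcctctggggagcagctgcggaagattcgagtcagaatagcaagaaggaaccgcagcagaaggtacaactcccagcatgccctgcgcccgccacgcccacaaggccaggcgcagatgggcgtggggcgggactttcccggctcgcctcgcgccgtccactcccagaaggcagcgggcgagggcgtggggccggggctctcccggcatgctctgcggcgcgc
Ube2c held 6 matches of CCAAT and 1 of TTTGAA, Top2a 6 and 2, Hmmr 5 and 1, and Plk1 1 and 1, while Birc5 held neither in this window. Hmmr, a microtubule-associated receptor (0.96 ± 0.21), and Plk1, the polo-like kinase (1.06 ± 0.34), were chosen after their values were seen, and the Plk1 call was lost under several settings, including without MPP replicate 1 (adjusted p = 0.055). Among the 32 tested mitosis genes with a promoter in the table, 26 (81.2%) held CCAAT and 24 (75.0%) TTTGAA, against 37.9% and 18.1% of all 27025 promoters. Of the 10 called among them 8 held CCAAT and 7 TTTGAA. A match describes letters and is no evidence of binding.

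For DNA replication, 7 of 36 tested genes were higher and the other 29 were not called (median 0.12). After scaling 12 were higher (median 0.35), 4 were higher without ST replicate 2, and 2 were lower without MPP replicate 3. Uhrf1, which guides maintenance methylation behind the fork, went from 27.2, 25.7 and 28.6 FPKM in ST to 43.8, 44.5, 43.7 and 44 FPKM in MPP (0.68 ± 0.13, limma adjusted p = 0.0026). Mcm3, a subunit of the replicative helicase, was at 269, 206 and 245 and 352, 344, 346 and 354 FPKM (0.54 ± 0.12), and Pold1, the catalytic subunit of polymerase delta, had a log2 fold change of 0.50 ± 0.11. Tyms, thymidylate synthase, was at 189, 229 and 219 FPKM in ST and 164, 125, 233 and 188 FPKM in MPP, with overlapping groups (-0.29 ± 0.16, adjusted p = 0.21).

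Regulators of the cell cycle moved in both directions. Of 26 tested cyclins, kinases and inhibitors 6 were higher and 6 lower (after scaling 7 and 3). Cdkn1c, which encodes the inhibitor p57 of quiescent stem cells, fell from 6.39, 8.1 and 6.85 FPKM in ST to 1.94, 2.77, 1.16 and 1.13 FPKM in MPP (-1.60 ± 0.19). In contrast Cdkn1a, which encodes p21, rose from 4.21, 4.69 and 4.11 FPKM to 14.4, 9.42, 12.8 and 9.46 FPKM (1.21 ± 0.28). Ccnd3, cyclin D3, was at 89.7, 97.2 and 119 FPKM in ST and 49, 36.5, 47.2 and 43.7 FPKM in MPP (-1.19 ± 0.12), and Rbl2, the retinoblastoma relative p130 of resting cells, fell by a log2 fold change of -0.85 ± 0.15. Btg2, an antiproliferative gene, rose (0.66 ± 0.14), and Cdk4 was at 757, 759 and 753 and 652, 469, 814 and 742 FPKM (-0.21 ± 0.16, adjusted p = 0.38).

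**Figure D4:**
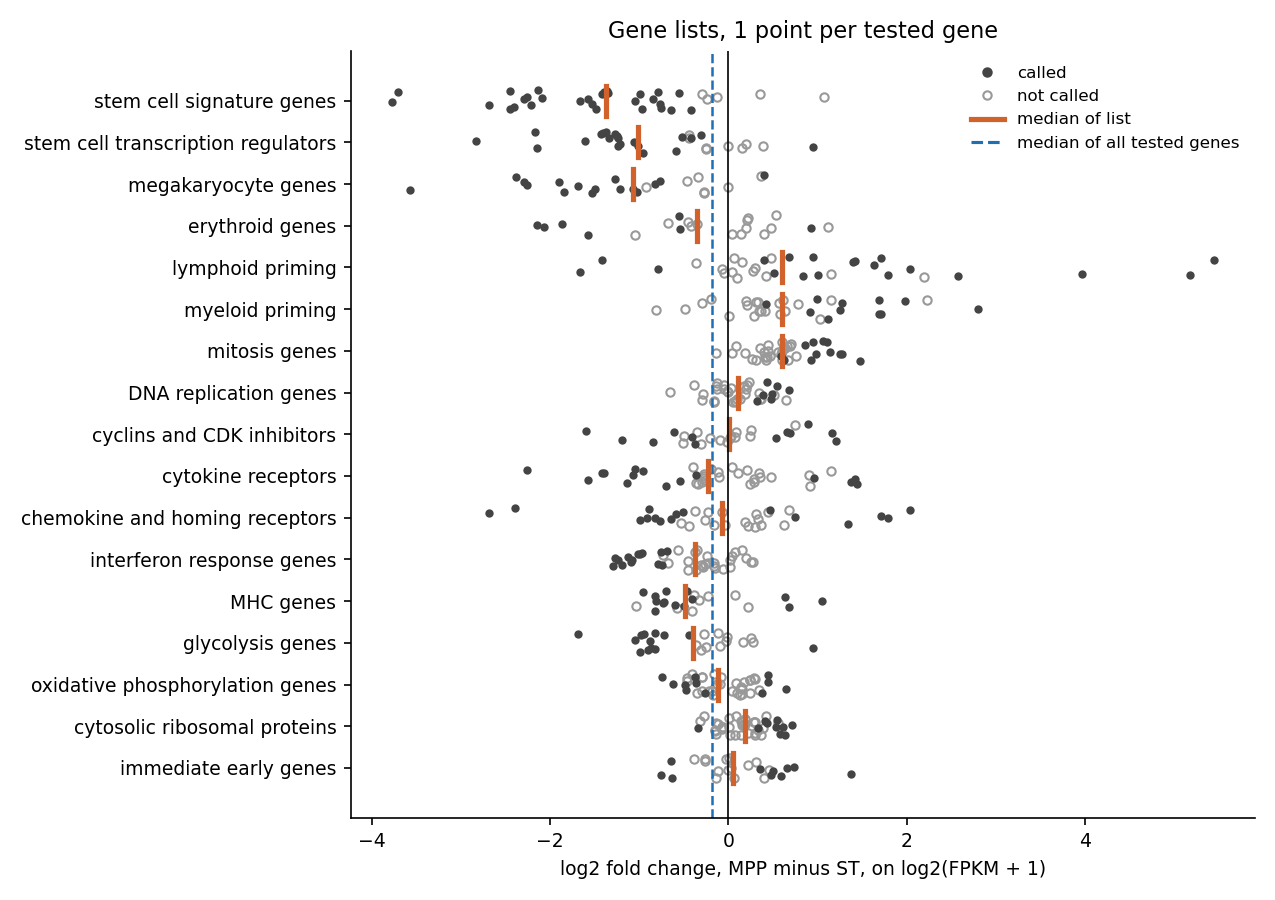
Log2 fold change between MPP and ST (horizontal axis) for each tested member of 17 gene lists (vertical axis), filled where called at an adjusted p under 0.05 and open where not, with a bar at the median of each list. The dashed line is the median of all tested genes at -0.18, and stem cell and megakaryocyte lists lie left of it with medians of -1.37, -1.01 and -1.06 while lymphoid, myeloid and mitosis lists have a median of 0.60 each.

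Receptors for cytokines moved in both directions. Of 38 tested receptors and their signalling partners 4 were higher and 11 lower, and after scaling 8 were higher and 8 lower. Beside Kit, which is described above, Jak2, a kinase that signals downstream of cytokine receptors, was at 12.9, 12.3 and 16.7 FPKM in ST and 6.88, 4.57, 5.79 and 6.01 FPKM in MPP (-1.13 ± 0.13, limma adjusted p = 5.0e-05). Il1r1, the interleukin 1 receptor, was chosen with its values known; it was at 3.66, 5.23 and 3.48 and 13.6, 9.16, 12.9 and 13.7 FPKM and rose (1.38 ± 0.18). Cd27, a receptor of the tumour necrosis factor family, was at 141, 131 and 145 FPKM in ST and 137, 109.8, 158 and 116 FPKM in MPP (-0.11 ± 0.14, adjusted p = 0.62).

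Homing and adhesion genes also moved in both directions. Of 33 tested genes 6 were higher and 10 lower (after scaling 6 and 5), with 6 lower without ST replicate 2. Cxcr4, the receptor for the niche chemokine Cxcl12, stood at 3.34, 2.6 and 3.3 FPKM in ST and 8.34, 13, 6.62 and 10.5 FPKM in MPP, highest in MPP replicate 2 (1.35 ± 0.18, limma adjusted p = 1.6e-04). Itgal, the alpha subunit of the leukocyte integrin LFA-1, rose from 2.91, 5.09 and 2.93 FPKM to 17.7, 19.9, 18.4 and 15.1 FPKM (2.04 ± 0.21). The list also holds an enzyme gene, Ptgs1, cyclooxygenase 1, which fell from 34.7, 36.3 and 32.2 FPKM to 3.41, 6.75, 4.76 and 9.57 FPKM (-2.39 ± 0.21). Cd47 was high in both groups, at 304, 315 and 349 FPKM and 295, 224, 350.5 and 299 FPKM (adjusted p = 0.43). Among ABC transporters, which pump drugs and dyes out of stem cells, 4 of 20 were lower and the other 16 were not called (after scaling 2 lower, and 2 without ST replicate 3). These shares lie near the 15.6% of all tested genes that were lower and the 7.6% after scaling. Abcg2, the transporter behind the side population, was at 57.8, 97.1 and 92.7 FPKM in ST and 22.7, 34.5, 33.9 and 36.5 FPKM in MPP (-1.33 ± 0.18), and Abcg3 fell from 5.6, 8.1 and 12.6 FPKM to 1.12, 0.351, 1.07 and 0.765 FPKM (-2.37 ± 0.22).

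Calls in the Notch and TGF-beta lists are read against the 20.4% of all tested genes that were called. In the Notch list 2 of 19 tested genes were higher and 1 lower (after scaling 3 were higher). Notch1, which is also in the lymphoid list, was among the higher ones. The lower one, Adam10 (-0.38 ± 0.12), lost its call without ST replicate 2 or 3 or MPP replicate 2, 3 or 4 (adjusted p 0.061 to 0.19). Of 26 TGF-beta and BMP genes 2 were higher and 5 lower, and after scaling 2 and 2. Leaving out 1 library at a time gave 2 to 6 lower genes, fewest without ST replicate 2 and most without MPP replicate 3, and 1 higher gene without ST replicate 1 or 2. Tgfbr3, the co-receptor betaglycan, was the clearest, at 4.9, 9.21 and 7.61 FPKM in ST and 1.37, 1.33, 1.08 and 1.06 FPKM in MPP (-1.86 ± 0.17, limma adjusted p = 7.2e-06). Eng, endoglin, was at 10.3, 18.5 and 7.74 and 3.46, 1.99, 4.15 and 5.54 FPKM (-1.44 ± 0.35), and its call was lost without ST replicate 2 (adjusted p = 0.06).

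Interferon response and antigen presentation genes were read against all called genes, of which 23.5% were higher in MPP, and 54.8% after scaling. Of 40 tested interferon response genes 14 were lower and the other 26 were not called (median -0.37), and after scaling 13 were lower and 2 higher (median -0.15). Oasl2, a relative of the oligoadenylate synthetases, was at 35.6, 54.6 and 45.1 FPKM in ST and 13.3, 15.7, 22.6 and 21.4 FPKM in MPP (-1.27 ± 0.19, limma adjusted p = 3.9e-04). Gbp2, a guanylate-binding protein, went from 26.1, 27.7 and 22.9 FPKM to 10.9, 6.75, 10.3 and 12 FPKM (-1.29 ± 0.17), and Lgals3bp, a secreted glycoprotein, from 183, 172 and 188 FPKM to 105, 101, 115 and 109 FPKM (-0.75 ± 0.10). Psmb8, a subunit of the immunoproteasome, varied more in MPP, at 287, 179.5, 439 and 328 FPKM against 444, 417 and 441 FPKM in ST, and was not called (adjusted p = 0.094), but was without MPP replicate 3 (adjusted p = 0.016). Among 22 MHC genes 11 were lower and 3 higher, and after scaling 7 and 4. H2-T22 (-0.70 ± 0.11) and H2-T23 (-0.81 ± 0.14), both nonclassical class I genes, fell, as did H2-Q6 (-0.72 ± 0.11) and H2-Q7 (-0.73 ± 0.10), copies so alike that reads may be split between them. H2-DMa, which loads peptides on class II, was at 158, 199 and 228 FPKM and 144, 93.3, 214 and 163 FPKM (adjusted p = 0.23).

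Metabolic genes moved unequally. Of 24 tested glycolysis genes 12 were lower and 1 higher (median -0.40), and after scaling 8 and 3 (median -0.14). Aldoa, aldolase A, stood at 374, 336 and 346 FPKM in ST and 202, 148, 252 and 179 FPKM in MPP (-0.87 ± 0.14, limma adjusted p = 7.8e-04). Ldhb, a lactate dehydrogenase subunit, went from 108, 124 and 121 FPKM to 57.4, 54.9, 82.7 and 57.6 FPKM (-0.90 ± 0.13), and Hk1, hexokinase 1, from 24, 23.5 and 21 FPKM to 13.6, 10.5, 13.4 and 12.7 FPKM (-0.82 ± 0.13). Gapdh, in contrast, was at 519.8, 449 and 487 FPKM in ST and 552, 527, 581 and 514 FPKM in MPP, not called without scaling (adjusted p = 0.16) and higher after it (0.43, adjusted p = 0.0074). Of 40 oxidative phosphorylation genes 4 were higher and 7 lower, and after scaling 14 were higher and 1 lower. Lower calls over all genes were 15.6% without scaling and 7.6% with it, and higher calls 4.77% and 9.23%. The counts of this list changed in the same direction as those of all genes, with larger shares of higher genes in either fit. Lower genes numbered 14 without MPP replicate 3, 4 without MPP replicate 1, 2 without ST replicate 3 and 1 without ST replicate 2. Ndufa4, a subunit of cytochrome oxidase, rose in either fit, from 1030.01, 967 and 1002 FPKM to 1607, 1525, 1618 and 1527 FPKM (0.65 ± 0.07).

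Genes of protein synthesis were read next, against 4.77% of all tested genes higher without scaling and 9.23% with it. Lower calls over all tested genes were 15.6% and 7.6%. Without scaling, the lower shares of the ribosome biogenesis and chaperone lists below lay near that of all genes. Ribosomal protein genes had larger shares of higher calls in either fit. Of 44 ribosomal protein genes 9 were higher and 1 lower, against 27 higher after scaling, and these higher calls were lost without ST replicate 2, and their count was 1 without ST replicate 3, 4 without MPP replicate 1 or 2 and 14 without ST replicate 1. Rpl28 was at 1268, 939 and 992 FPKM in ST and 1782, 2425, 1417 and 1489.5 FPKM in MPP (0.72 ± 0.18), highest in MPP replicate 2, and its call was lost without ST replicate 2 (adjusted p = 0.061) or ST replicate 3 (adjusted p = 0.0504). Of 30 ribosome biogenesis genes 3 were higher and 4 lower, and after scaling 4 and 1. The higher calls were lost without ST replicate 2. When 1 library was left out 1 to 7 were lower, fewest without ST replicate 3 and most without MPP replicate 3. Nop2, a methyltransferase of ribosomal RNA, fell from 22.4, 26.2 and 21 FPKM to 10.4, 10.5, 13.7 and 9.86 FPKM. Of 22 heat shock and chaperone genes 3 were higher and 3 lower, and after scaling 6 and 2, with 1 higher without ST replicate 2 and 5 without ST replicate 1. Pdia3, a disulfide isomerase of the endoplasmic reticulum, was at 161, 264 and 193 FPKM and 58.2, 45.6, 122 and 86 FPKM (-1.46 ± 0.30), and Xbp1, a factor of the unfolded protein response, fell as well (-1.07 ± 0.22).

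Immediate early genes, apoptosis genes and chromatin regulators completed the lists. Over all tested genes 4.77% were higher and 15.6% lower, and after scaling 9.23% and 7.6%. Without scaling, the lower shares of the immediate early and apoptosis lists lay near that of all genes. Of 24 immediate early genes 7 were higher and 3 lower, and after scaling 8 were higher and 0 lower. Leaving out ST replicate 2 or ST replicate 3 left 1 lower gene. Klf2, a zinc finger factor of quiescent lymphocytes, was at 3.38, 3.34 and 3.38 FPKM in ST and 8.31, 13.8, 11.4 and 8.64 FPKM in MPP (1.38 ± 0.14, limma adjusted p = 1.6e-05), without overlap. Zfp36, which destabilises cytokine messages, went from 62.3, 68.6 and 69.7 FPKM to 101, 123, 98.4 and 131 FPKM (0.74 ± 0.10). For apoptosis and p53 genes 3 of 27 were higher and 4 lower, and after scaling 3 and 2, with 1 lower without MPP replicate 1, ST replicate 2 or ST replicate 3 and 2 without MPP replicate 2. Bcl2, which protects cells from death, was at 13.5, 13.9 and 15.1 FPKM in ST and 28.2, 31, 28 and 28 FPKM in MPP (0.97 ± 0.13). Its antagonist Bcl2l11 rose too, from 3.27, 2.74 and 2.33 FPKM to 6.12, 5.46, 5.03 and 4.66 FPKM (0.74 ± 0.15). Of 30 chromatin and DNA methylation regulators 6 were higher and the other 24 were not called, and after scaling 10 were higher. The higher ones include Satb1 and Hmga2, which are described above with other lists. Without MPP replicate 4, 3 were higher, and without MPP replicate 1, 2 were lower. Hmgb2, a DNA-bending protein of dividing cells, was at 99.1, 119 and 124 FPKM in ST and 216, 232, 196 and 211 FPKM in MPP (0.90 ± 0.09).

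The change from ST to MPP was then set against the change from Reserve to ST, by testing the difference of the 2 differences in the same fit. Both share the ST libraries, so a gene that is high or low in ST by error moves both. A positive value means that MPP minus ST was the larger of the 2 in sign, a negative one that ST minus Reserve was. The test called 691 genes (4.27%), 202 positive (1.25%) and 489 negative (3.02%). With the near-identical pairs averaged 123 were positive and 265 negative, and after scaling 253 and 196. The total fell to 280 without ST replicate 2 and to 236 without ST replicate 3, and rose to 1064 without MPP replicate 3.

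In the lymphoid list 7 of 32 genes had a positive difference (5 with pairs averaged, 3 without ST replicate 2). Dntt was at 0.701 ± 1.12 FPKM in Reserve (mean ± SD over 3 samples), 5.45 ± 0.627 FPKM in ST (3 libraries) and 280.3 ± 31.9 FPKM in MPP (4 libraries; difference 3.23 ± 0.54, limma adjusted p = 0.0042 and, with pairs averaged, 0.01). Satb1 was at 7.19 ± 2.44 FPKM in Reserve, 7.52 ± 1.83 FPKM in ST and 49 ± 4.18 FPKM in MPP (2.51 ± 0.41, adjusted p = 0.0036). Of 23 megakaryocyte genes 8 had a negative difference (6 with pairs averaged and after scaling, 5 without ST replicate 2 or 3). Pf4 was at 99.5 ± 26.6 FPKM in Reserve, 136 ± 11.9 FPKM (SD, n = 2) in Primed and 147 ± 49.5 FPKM in ST before it dropped to 11.4 ± 3.21 FPKM in MPP (-4.24 ± 0.46, adjusted p = 2.0e-04). Meis1, at 217 ± 12 FPKM in Reserve, 232 ± 9.13 FPKM in Primed, 193 ± 27.7 FPKM in ST and 73.6 ± 4.64 FPKM in MPP, gave -1.18 ± 0.17 (adjusted p = 0.0014). Mecom was at 71.8 ± 4.91 FPKM in Reserve and 29.3 ± 4.13 FPKM in ST and was not called by this test (-0.13 ± 0.26, adjusted p = 0.82). Vwf was at 74.1 ± 22.4 and 13.4 ± 2.8 FPKM (-0.02 ± 0.44, adjusted p = 0.9974).

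Of 36 DNA replication genes 19 had a negative difference and the other 17 were not called. The count was 14 with pairs averaged, 10 after scaling, 8 without ST replicate 2 and 5 without ST replicate 3. Tyms went from 38.3 ± 2.02 FPKM in Reserve to 212 ± 21.2 FPKM in ST and 178 ± 45.3 FPKM in MPP (-2.75 ± 0.27, limma adjusted p = 9.1e-05 and, with pairs averaged, 8.3e-04). Uhrf1 was at 6.25 ± 1.29, 27.2 ± 1.46 and 44 ± 0.367 FPKM in the same order (-1.34 ± 0.23, adjusted p = 0.005). Mitosis genes had a negative difference for 6 of 38, a count of 1 without ST replicate 2 and 2 without ST replicate 3. Mki67 was at 4.26 ± 0.205 FPKM in Reserve, 5.55 ± 0.511 FPKM in Primed, 24.1 ± 3.05 FPKM in ST and 44.7 ± 4.19 FPKM in MPP (-1.40 ± 0.20, adjusted p = 0.0013). Immediate early genes had 10 positive differences among 24 genes (9 with pairs averaged, 8 without any one of the ST libraries). Klf2 was at 18.5 ± 1.62 FPKM in Reserve, 3.36 ± 0.0214 FPKM in ST and 10.5 ± 2.57 FPKM in MPP (3.53 ± 0.25, adjusted p = 1.1e-05).

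**Figure D5:**
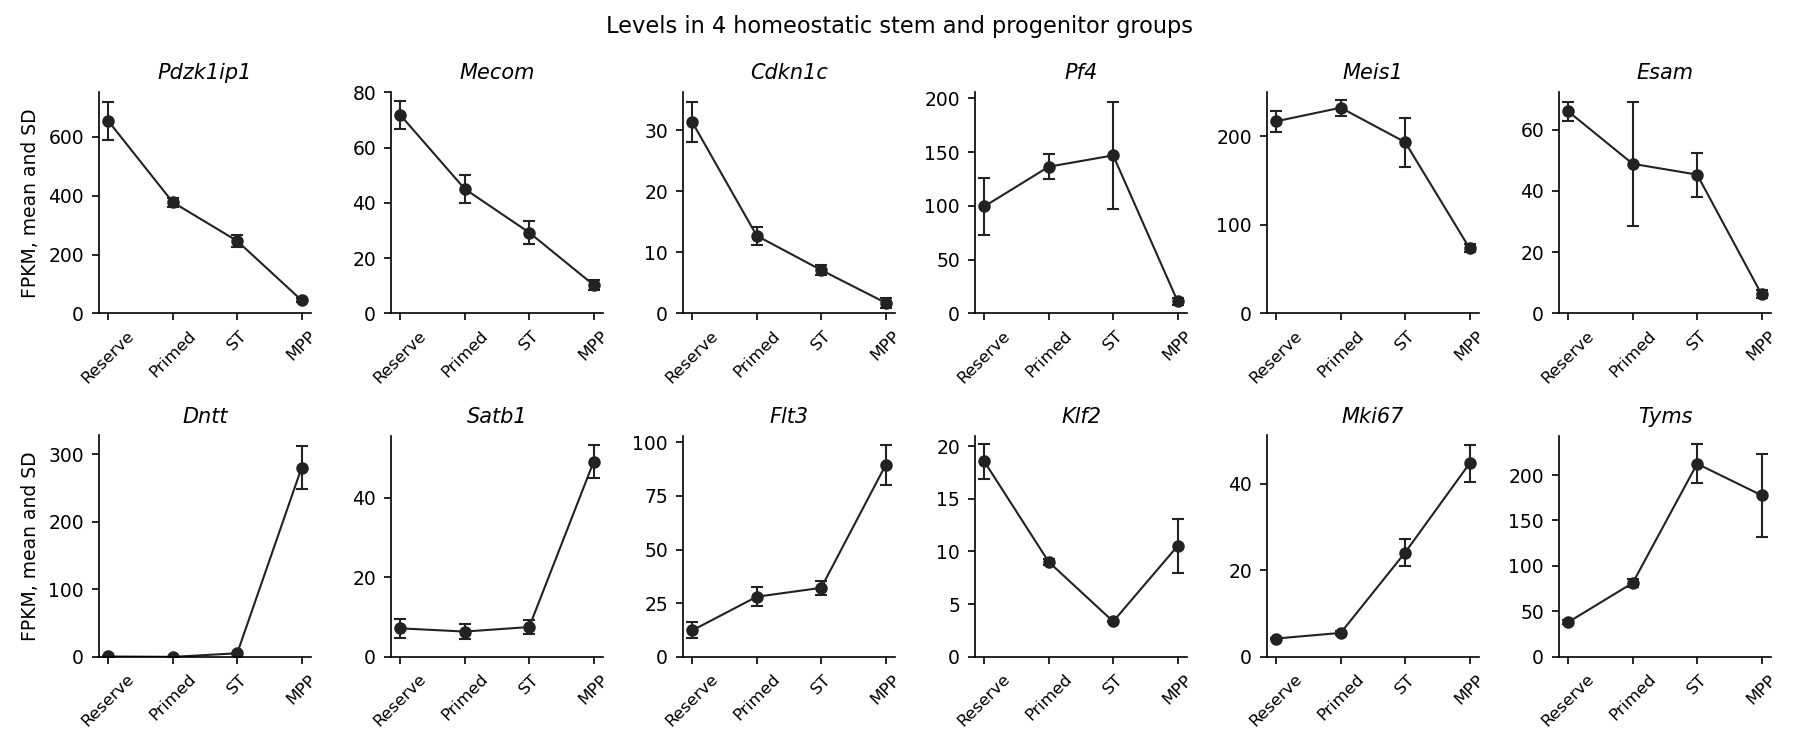
Mean FPKM with SD for 12 genes in Reserve (n = 3, with near-identical replicates 3 and 4 averaged), Primed (n = 2, with near-identical replicates 2 and 3 averaged), ST (n = 3) and MPP (n = 4), each panel with its own linear axis from 0. Pdzk1ip1, Mecom and Cdkn1c decrease along the series, Pf4 and Meis1 drop between ST and MPP, Dntt and Satb1 are high in MPP, Klf2 is lowest in ST, and Tyms has its highest mean in ST.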

How the data were processed

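FPKM per gene and library were taken as the authors deposited them. RNA was amplified from sorted cells with a low-input SMARTer kit and sequenced, per the labels' protocols, and bcl2fastq 2.18, TopHat2 2.0.13, Cufflinks 2.2.1 and build mm10 are named in the submitters' processing notes. The sources used here do not give the strand setting. Of 44500 genes 15 lacked a value in some library and were dropped, and 16171 with at least 1 FPKM in at least 3 of the 17 stem and progenitor libraries were tested on log2(FPKM + 1), which understates changes of low genes. The test was limma 3.58.1 with a mean-variance trend over 5 groups (R 4.3.3, data.table version 1.17.8), with Benjamini-Hochberg adjustment over all tested genes and a threshold of 0.05. The depth estimate rests on the smallest step between low values, and no counts were used.

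On simulated data with 15192 genes, the fit recovered 50.0% of changes of log2 size 1 and 83.2% of size 2, and 5.22% of calls were false. The simulation had independent noise, few changed genes in balanced directions, no shift of the median and no near-identical pairs. Its rates need not hold for the real libraries. Named genes are those of the sort gate, up to 4 called members per list with the smallest p at 5 FPKM or more, the highest member not called, and the 10 largest rises and falls without overlap at 5 FPKM or more. Members and lists were chosen with earlier results of these data known. Alternatives were a pseudocount of 0.1, no filter, a mean of at least 5 FPKM, median-of-ratios scaling, fits of the compared groups alone or without 5FuReserve, a replicate block, and the omission of each MPP and ST library and, for the difference of steps, each Reserve library. Protein-coding genes only and averaged near-identical pairs were added after seeing the data. Some genes of these lists are counted but not reported by name here.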

Additional observations from a re-analysis of the deposited data

Results flagged for a closer look

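In the 4 MPP libraries, 1 library lay far from the other 3 for 8 of 133 genes of the text examined, judged by its gap to the nearest library as a share of the group's range. Chance flags about 1 in 20 such groups. MPP replicate 2 stood apart for Bcl2 (share 0.926, 28.2, 31, 28 and 28 FPKM in replicates 1 to 4), Rbl2 (0.871), Car2 (0.87), Apoe (0.86) and Mki67 (0.833, 47.4, 38.5, 45.9 and 46.9 FPKM). This library also had the lowest estimated depth of the 4, and its part in these values was not tested. MPP replicate 3 stood apart for Ldhb (0.904, 57.4, 54.9, 82.7 and 57.6 FPKM) and Nop2 (0.83), and MPP replicate 1 for Mcpt8 (0.899, 38.1, 234, 218 and 239 FPKM).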

How the results depend on the processing

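Of 173 named genes 135 were called, 100 of them under every alternative run other than the omission of Reserve libraries, where single genes were not read, and none of the 135 changed sign. Fitting ST and MPP libraries alone gave 1485 calls, 380 higher and 1105 lower. Median-of-ratios scaling gave 1488 higher and 1225 lower, and a mean of at least 5 FPKM gave 504 higher. Leaving out 1 library at a time gave 1978 to 3759 calls, 480 to 843 higher and 1498 to 2916 lower. For the difference of steps, scaling gave 449 calls with 196 negative, the compared groups alone 319 with 114 positive and 205 negative, and the fit without 5FuReserve 457 with 307 negative. A mean of at least 5 FPKM gave 111 positive, and averaged pairs 388 with 123 positive and 265 negative. Leaving out 1 library gave 236 to 1064, 93 to 239 positive and 143 to 825 negative. Pcna went from -0.01 to 0.26 after scaling and was not described. The causes of these shifts were not tested.

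The replicate numbers showed no pairing of the samples, since deviations of same-numbered MPP and ST libraries correlated at -0.0009, -0.0101 and -0.0034. A weak shared effect could be missed by this check, so pairing is not excluded. With the replicate block 3256 genes were called, 744 higher and 2512 lower, and 521 for the difference of steps, 147 positive and 374 negative. Depth and 3 or 4 libraries per group limit what can be seen of low genes.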
